A study of Mus musculus with 6 samples.

Results

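The Ms4a genes encode small membrane proteins that cross the membrane 4 times, and 10 of them, taken as a myeloid set (Ms4a3, Ms4a4a, Ms4a4b, Ms4a4c, Ms4a6b, Ms4a6c, Ms4a6d, Ms4a7, Ms4a8a and Ms4a14), are described here, out of 19 Ms4a genes and 55536 named genes in a table of gene counts. They were chosen by gene name, with earlier results of these data known. RNA of 6 mouse samples was sequenced, and each group is 1 library. GM-BMDM are macrophages grown for 7 days from marrow with GM-CSF, and GM-BMDM_3h are the same kind of culture given interleukin-6 (IL6) for 3 h. M-BMDM are macrophages grown for 7 days with M-CSF, and M-BMDM_3h and M-BMDM_24h received IL6 for 3 h or 24 h. BM is uncultured bone marrow, a mixture of cells. All came from C57BL/6 mice of 8 weeks, and the labels name no other allele or agent and do not say how many mice gave each sample. The growth factors are M-CSF, which keeps tissue macrophages alive, and GM-CSF, which also yields cells with dendritic features.

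With 1 library per group, a difference between 2 libraries has no replicate check. Each is given as a ratio of scaled counts with a 95% exact (Clopper-Pearson) interval, which covers counting error only. Levels are CPM, counts brought to a common library size, after TMM scaling, a correction for differences in library composition. Calls of higher or lower needed 3 things: a ratio of 2-fold or more, an interval without 1, and 5 CPM or more on the higher side. The words "rose" and "fell" are kept for an edgeR quasi-likelihood test, which the design allows for GM-CSF against M-CSF cultures and for IL6 at 3 h against none, with 1 residual degree of freedom. In bulk RNA, fewer cells of a type and less RNA per cell cannot be told apart.

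The family is best known for Ms4a1, the B cell antigen CD20, and Ms4a2, the beta chain of the high-affinity IgE receptor of mast cells and basophils. The myeloid members sit in or near immune receptors, and several have partners: human MS4A3 binds the phosphatase encoded by CDKN3, a brake on cell division, mouse Ms4a4a works with the fungal receptor Dectin-1 (Clec7a), and the human MS4A locus is linked to levels of soluble TREM2. Ms4a7 and members of the Ms4a6 group are widely used to mark macrophages and monocytes.

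All 19 Ms4a genes lie together on chromosome 19 (GRCm38, from 10962293 to 11640851, 678.6 kb). Ms4a14 (11301249 to 11314454) and Ms4a7 (11321039 to 11336146) are neighbours on the minus strand, 6584 bp apart. Next come Ms4a4a (11375523 to 11392790), Ms4a4c (11404770 to 11427246), Ms4a4b (11443553 to 11467055), Ms4a6c (11469366 to 11482192) and Ms4a6b (11516512 to 11531256), all on the plus strand. Ms4a6d (11586604 to 11604849) and Ms4a3 (11629496 to 11640851) close the cluster on the minus strand. Ms4a8a (11067471 to 11081102) stands apart towards the other end, also on the minus strand.

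Promoters are shown for 2 duplicated pairs, so that their windows can be compared, for the neighbours Ms4a7 and Ms4a14, and for Ms4a3, the member with the highest level per length in BM. The choice of these 7 was made after their motifs were known. RefSeq (GRCm38.p6) gave 10 promoter entries for 9 of the 10 members and none for Ms4a6d, so its promoter was not searched. Each entry is 300 bases long, with 250 before and 50 after the start site. The windows of Ms4a6b and Ms4a4c lie wholly inside the gene spans given above, so their start sites are not the starts of those spans. Of the 2 entries of Ms4a7 the first is shown. The sequences run 5′ to 3′ on the strand of the gene, and capitals mark the letters GGAAGT on either strand, the core bound by the myeloid factor PU.1, in Ms4a3 also TTNNGCAA, a C/EBP motif, and in Ms4a14 TGTGGNT, a RUNX motif.
Ms4a6b promoter, chr19:11518309-11518608, plus strand: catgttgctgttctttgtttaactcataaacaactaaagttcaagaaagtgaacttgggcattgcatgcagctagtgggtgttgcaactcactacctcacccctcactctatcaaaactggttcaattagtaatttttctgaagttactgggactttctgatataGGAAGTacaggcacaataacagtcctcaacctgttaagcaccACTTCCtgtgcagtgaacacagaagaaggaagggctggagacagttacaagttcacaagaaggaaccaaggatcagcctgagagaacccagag
Ms4a6c promoter, chr19:11469118-11469417, plus strand: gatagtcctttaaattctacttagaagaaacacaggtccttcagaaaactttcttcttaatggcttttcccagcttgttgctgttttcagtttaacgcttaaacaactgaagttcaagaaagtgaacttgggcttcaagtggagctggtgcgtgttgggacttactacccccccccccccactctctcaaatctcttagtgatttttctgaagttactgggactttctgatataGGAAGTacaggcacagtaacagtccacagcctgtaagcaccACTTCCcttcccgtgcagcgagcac
Ms4a4b promoter, chr19:11443308-11443607, plus strand: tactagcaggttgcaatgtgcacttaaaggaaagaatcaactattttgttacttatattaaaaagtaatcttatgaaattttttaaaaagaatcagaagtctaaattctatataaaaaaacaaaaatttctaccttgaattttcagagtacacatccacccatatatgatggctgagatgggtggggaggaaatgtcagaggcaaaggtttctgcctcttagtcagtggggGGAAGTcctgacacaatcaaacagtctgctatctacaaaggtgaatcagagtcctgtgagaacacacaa
Ms4a4c promoter, chr19:11407411-11407710, plus strand: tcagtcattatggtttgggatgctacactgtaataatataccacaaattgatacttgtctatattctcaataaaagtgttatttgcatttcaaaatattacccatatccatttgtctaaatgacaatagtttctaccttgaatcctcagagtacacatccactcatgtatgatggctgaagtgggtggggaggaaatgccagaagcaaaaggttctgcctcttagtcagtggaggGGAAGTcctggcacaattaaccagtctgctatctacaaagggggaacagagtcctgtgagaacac
Ms4a7 promoter, chr19:11336097-11336396, minus strand: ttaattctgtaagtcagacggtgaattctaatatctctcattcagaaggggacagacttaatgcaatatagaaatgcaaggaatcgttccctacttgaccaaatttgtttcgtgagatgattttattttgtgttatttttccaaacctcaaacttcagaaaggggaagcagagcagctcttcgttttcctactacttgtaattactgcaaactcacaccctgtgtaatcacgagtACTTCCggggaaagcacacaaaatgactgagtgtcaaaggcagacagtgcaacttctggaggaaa
Ms4a14 promoter, chr19:11314405-11314704, minus strand: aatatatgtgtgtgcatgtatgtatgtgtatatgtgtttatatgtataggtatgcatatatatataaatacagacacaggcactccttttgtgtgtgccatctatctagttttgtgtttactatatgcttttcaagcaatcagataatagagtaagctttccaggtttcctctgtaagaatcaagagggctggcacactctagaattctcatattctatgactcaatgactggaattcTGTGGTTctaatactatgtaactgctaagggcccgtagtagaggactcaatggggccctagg
Ms4a3 promoter, chr19:11640802-11641101, minus strand: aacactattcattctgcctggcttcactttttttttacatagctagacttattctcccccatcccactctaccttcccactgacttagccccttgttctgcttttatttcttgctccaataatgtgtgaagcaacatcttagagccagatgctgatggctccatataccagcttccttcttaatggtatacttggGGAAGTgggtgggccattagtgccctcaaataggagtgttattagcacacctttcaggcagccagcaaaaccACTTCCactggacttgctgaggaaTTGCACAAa

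The first 4 sequences are 2 duplicated pairs. The Ms4a6b and Ms4a6c windows were identical at 80.3% of 223 aligned bases and shared an unbroken run of 48 bases, which carries GGAAGT. Those of Ms4a4b and Ms4a4c were identical at 71.2% of 292 aligned bases, with a longest run of 20. The other 34 pairs of member promoters had 34.8 to 48.6% identity and runs of at most 12 bases. GGAAGT was found in 6 of the 10 entries, and not in those of Ms4a4a, Ms4a8a, Ms4a14 and the second of Ms4a7, and 23.8% of all 32851 promoters of the table hold it. It began at -19 in Ms4a4b, -15 in Ms4a4c and -15 in Ms4a7 from the start site, and began at -16 and 26 in Ms4a6c, -85 and -43 in Ms4a6b, and -55 and 18 in Ms4a3. Neither TTCNNNGAA, the site of STAT factors, nor the interferon response element ISRE was in any of the 10 windows, and 8.3% and 3.44% of all promoters hold them. TTNNGCAA was found in 1 entry, that of Ms4a3, against 10.8% of all promoters. The RUNX letters ANCCACA or TGTGGNT were in 3 entries, those of Ms4a4a, Ms4a8a and Ms4a14, against 20.2% of all promoters. Each motif was sought on both strands, and a match describes letters in these windows and not a bound site.

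Library totals ran between 18567482 and 24196082 counts. The sum of 7 macrophage markers was 2750 CPM in GM-BMDM, 2668 in GM-BMDM_3h, 6804 in M-BMDM, 7483 in M-BMDM_3h, 5812 in M-BMDM_24h and 399.6 in BM. Dendritic markers summed to 1035 CPM over 5 genes in GM-BMDM and monocyte markers to 142 CPM, against 27.2 and 18.4 CPM in M-BMDM. Nearly all of the dendritic sum was Itgax, the integrin CD11c, at 995 CPM. Against BM, 2 of the 5 were higher and 2 lower, where 20.2% and 21.9% of all genes were. Ccr7 was at 20.2 CPM in GM-BMDM and 14.4 in BM, and Clec9a at 15.7 and 6.36. Zbtb46 was at 3.36 and 8.95 CPM, and Flt3 at 0.322 and 24.9, with 0.322 also in M-BMDM. Neutrophil markers summed to 527.5 CPM over 6 genes in GM-BMDM, against 11.5 in M-BMDM and 19040 in BM. In the edgeR test, 4 of the 6 rose in GM-CSF cultures, where 28.7% of all genes tested rose. Nearly all of the neutrophil sum was Mmp8, a collagenase, at 513 CPM in GM-BMDM. S100a8 was at 8.88 CPM there, S100a9 at 4.56 and Cxcr2 at 0.690, while Ly6g and Retnlg were at 0 in all 5 cultures. The part of these cells in the levels of the members was not tested. The 5 B cell markers summed to at most 0.665 CPM in the cultures. M-BMDM_24h stood apart from the other M-CSF libraries: its Spearman correlation with M-BMDM across genes was 0.940, against 0.995 for M-BMDM_3h, and 10 proliferation genes, chosen after values were seen, summed to 3695 CPM, against 686 in M-BMDM_3h and 674 in M-BMDM.

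**Figure D1:**
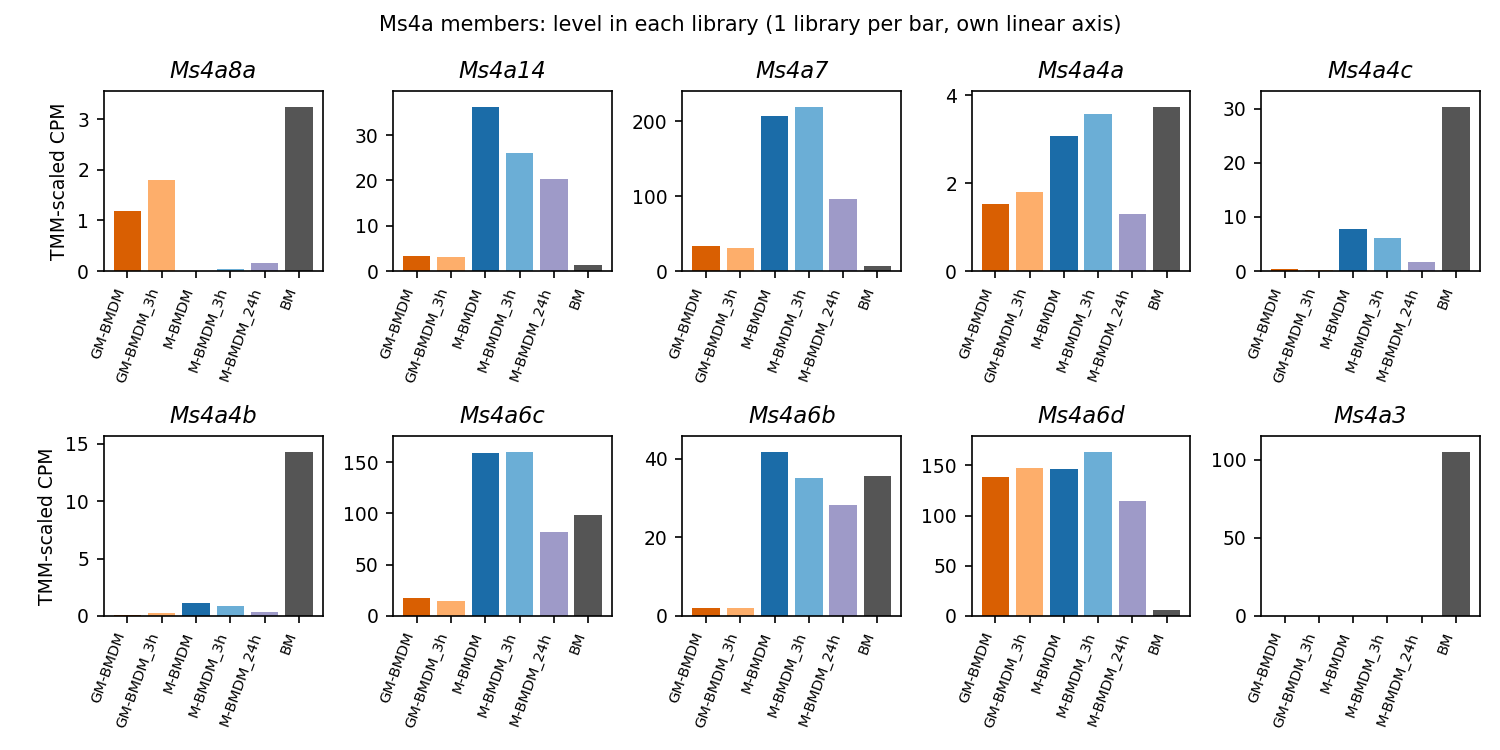
TMM-scaled CPM of each member in the 6 libraries (1 bar is 1 library, with its own linear axis per gene), in chromosomal order. Ms4a6d stood at 114 to 163 CPM in all 5 cultures and at 5.39 in BM, and Ms4a3 was high in BM alone.

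The make-up of the family differed between marrow and cultures in its leading gene, while Ms4a6c took about the same share in BM and M-BMDM. Per length, as CPM per kb of exon, Ms4a3 made up 39.3% of the summed level of the 10 members in BM and Ms4a6c 33.9%. In M-BMDM the sum was shared by Ms4a6d (35.9%), Ms4a6c (33.1%) and Ms4a7 (19.7%). In GM-BMDM, Ms4a6d alone gave 80.0%, ahead of Ms4a6c at 8.50% and Ms4a7 at 7.47%. The place of Ms4a7 depends on the length taken: with the authors' deposited gene lengths it led in M-BMDM (36.1%) and M-BMDM_3h (36.9%), and Ms4a6d still led in GM-BMDM (73.2%). Unscaled for length, the members summed to 197 CPM in GM-BMDM, 202 in GM-BMDM_3h, 602 in M-BMDM, 613 in M-BMDM_3h, 344 in M-BMDM_24h and 304 in BM.

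Against marrow, macrophage cultures had much more Ms4a6d and Ms4a7 and almost no Ms4a3. In M-BMDM, 3 of the 8 members that reached 5 CPM were higher than in BM (Ms4a6d, Ms4a7, Ms4a14) and 3 were lower (Ms4a3, Ms4a4b, Ms4a4c), where 20.6% of all genes at that level were higher and 22.6% lower. In GM-BMDM, 2 of 7 members were higher (Ms4a6d, Ms4a7) and 5 lower (the same 3 as in M-BMDM with Ms4a6b and Ms4a6c), against 20.2% and 21.9% of all genes. In M-BMDM_24h, 3 of 8 were higher (Ms4a6d, Ms4a7, Ms4a14) and 3 lower (Ms4a3, Ms4a4b, Ms4a4c), against 17.8% and 17.4%. The median log2 ratio of the 10 members was 0.02 in M-BMDM over BM and -1.54 in GM-BMDM over BM. Over all genes with at least 5 CPM it was 0.05 and -0.02. For these medians 2 CPM were added to each level, which pulls ratios of low members towards 0. Scaling by total counts moved all ratios of GM-BMDM over BM by -0.35 on the log2 scale, which turned the share of higher genes among all called ones to 32.9%, against 48.0% with TMM.

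Ms4a3, a gene of granulocyte and monocyte precursors, had 1 count in GM-BMDM, 0 in the other 4 cultures and 2590 counts (105 CPM) in BM. Set against 3 counts, the limit that 0 allows, it was at least 650.2-fold lower than BM in the M-BMDM library and at least 842-fold lower in that of M-BMDM_24h, and the log2 ratio of GM-BMDM over BM was -11.15 (-16.46 to -8.67). The whole group of precursor markers behaved this way: Mpo, Elane, Prtn3, Ctsg and Prss57 summed to 1.61 CPM in GM-BMDM, 0.269 in M-BMDM and 2911 in BM, and all 5 were lower in both. This was not particular to precursors. In M-BMDM over BM, 6 of 6 neutrophil, 5 of 5 B cell and 5 of 5 erythroid markers were also lower, where 22.6% of all genes were. Of the macrophage markers, 6 of 7 were higher. Whether Ms4a3 differed per precursor cell was not tested. Of 9993 genes, the closest in profile over the 6 libraries were Pou2af1, a B cell coactivator, and Slc43a1, an amino acid transporter (distance 0.20 each). With at most 1 count of Ms4a3 in any culture, this likeness reflects little beyond a similar level in BM (119.8 and 121.9 CPM) and near absence elsewhere.

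Ms4a4b and Ms4a4c were mainly marrow transcripts. Ms4a4b, known from T cells, where it associates with the receptor GITR, had 0.0920 CPM in GM-BMDM (2 counts), 0.274 in GM-BMDM_3h, 1.08 in M-BMDM, 0.824 in M-BMDM_3h, 0.332 in M-BMDM_24h and 14.3 in BM. Its log2 ratio was -3.73 (-4.46 to -3.08) in M-BMDM over BM. T cell markers moved with it, at 1.93 CPM over 6 genes in GM-BMDM, 2.96 in M-BMDM and 51.1 in BM, with Cd3e at 0 in both cultures, and their part in the difference was not tested. Ms4a4c kept more in M-CSF cultures, with 0.368 CPM in GM-BMDM, 0.165 in GM-BMDM_3h, 7.80 in M-BMDM, 6.18 in M-BMDM_3h, 1.70 in M-BMDM_24h and 30.2 in BM. The log2 ratio over BM was -6.36 (-7.58 to -5.37) for GM-BMDM and -1.96 (-2.22 to -1.70) for M-BMDM. The count of Ms4a4c over that of Ms4a4b within a library, which no scaling touches, was 7.25 (4.53 to 12.2) in M-BMDM and 2.12 (1.86 to 2.41) in BM.

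Ms4a6d, reported in mice to pair with the receptor VSIG4, was the member that both kinds of culture shared. It had 138 CPM in GM-BMDM, 148 in GM-BMDM_3h, 146 in M-BMDM, 163 in M-BMDM_3h, 114 in M-BMDM_24h and 5.39 in BM. The lowest culture was about 21.2-fold above BM, and log2 ratios over BM were 4.68 (4.43 to 4.94) for GM-BMDM and 4.77 (4.51 to 5.03) for M-BMDM. Ms4a7 and Ms4a14 were higher too, more in M-CSF cultures. Ms4a7 had 33.1 CPM in GM-BMDM, 30.5 in GM-BMDM_3h, 207 in M-BMDM, 219 in M-BMDM_3h, 96.0 in M-BMDM_24h and 6.72 in BM, and its log2 ratio over BM was 2.30 (2.06 to 2.55) for GM-BMDM and 4.94 (4.72 to 5.17) for M-BMDM. Ms4a14, best known from testis, had 3.22 CPM in GM-BMDM, 3.18 in GM-BMDM_3h, 36.1 in M-BMDM, 26.0 in M-BMDM_3h, 20.4 in M-BMDM_24h and 1.26 in BM. Its log2 ratio over BM was 4.85 (4.33 to 5.42) for M-BMDM and 1.36 (0.73 to 2.02) for GM-BMDM, the second under the 5 CPM limit for a call.

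**Figure D2:**
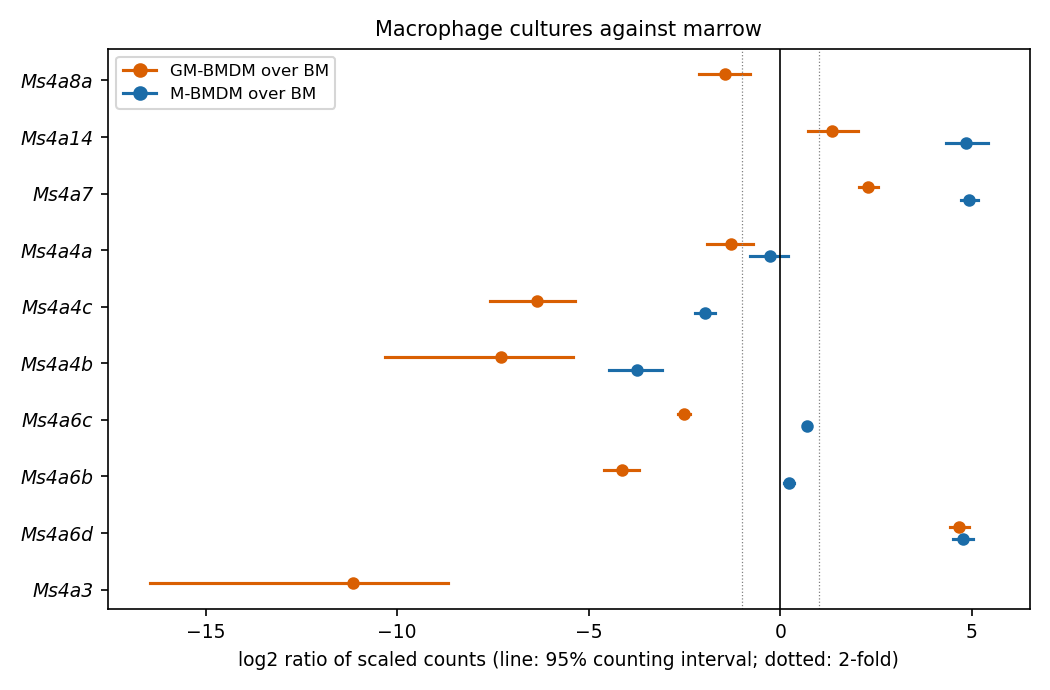
Log2 ratio of scaled counts in GM-BMDM over BM and M-BMDM over BM for each member, with 95% counting intervals (lines) and 2-fold marks (dotted). Points are left out where a library had 0 counts (Ms4a3 and Ms4a8a in M-BMDM). Ms4a6d has its 2 ratios side by side, at 4.68 and 4.77.

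Ms4a6b and Ms4a6c, duplicates of Ms4a6d on the plus strand, took a middle place, close to marrow in M-CSF cultures and far under it in GM-CSF cultures. Ms4a6c, used as a monocyte marker, had 17.4 CPM in GM-BMDM, 14.5 in GM-BMDM_3h, 159 in M-BMDM, 159.7 in M-BMDM_3h, 81.7 in M-BMDM_24h and 98.3 in BM. Its log2 ratio over BM was -2.50 (-2.66 to -2.35) for GM-BMDM and 0.70 (0.62 to 0.77) for M-BMDM. Ms4a6b had 2.03 CPM in both GM-BMDM and GM-BMDM_3h, 41.7 in M-BMDM, 35.2 in M-BMDM_3h, 28.2 in M-BMDM_24h and 35.6 in BM, with log2 ratios over BM of -4.14 (-4.61 to -3.70) for GM-BMDM and 0.23 (0.09 to 0.37) for M-BMDM. An annotated transcript on the opposite strand, BE692007, covers 53.1% of the exonic bases of Ms4a6c, and the strand setting of the counting is not given in the sources used here. BE692007 had 23 counts in GM-BMDM, 274 in M-BMDM and 491 in BM, against 377, 2964 and 2428 counts of Ms4a6c, and how far reads were shared between them was not tested.

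Ms4a4a and Ms4a8a were low everywhere. Ms4a4a had 1.52 CPM in GM-BMDM, 1.81 in GM-BMDM_3h, 3.06 in M-BMDM, 3.57 in M-BMDM_3h, 1.29 in M-BMDM_24h and 3.73 in BM, and its interval for M-BMDM over BM, -0.78 to 0.21 on the log2 scale, included 0. Ms4a8a, reported from alternatively activated and tumour macrophages of mice, had 26 counts in GM-BMDM (1.20 CPM), 33 in GM-BMDM_3h (1.81 CPM), 0 in M-BMDM, 1 in M-BMDM_3h, 4 in M-BMDM_24h and 80 in BM (3.24 CPM). It was at least 20.1-fold lower in M-BMDM than in BM.

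Of the other 9 Ms4a genes, 6 had no count in any library (Ms4a5, Ms4a10, Ms4a12, Ms4a13, Ms4a15 and Ms4a18), and Ms4a4d had 22 counts in BM and 1 in the cultures together. Ms4a1 (CD20) had 0 CPM in GM-BMDM, 0.108 in M-BMDM and 70.1 in BM, beside B cell markers, of which it is 1, at 0.644, 0.538 and 699 CPM. Ms4a2 had 0.0460 CPM in GM-BMDM, 0 in M-BMDM and 15.3 in BM. Fcer1g, the receptor chain that partners Ms4a2 and is also used by Fc receptors of macrophages, stayed high at 516 CPM in GM-BMDM, 587 in M-BMDM and 190 in BM, while Fcer1a, the IgE-binding chain, was at 0 in both of these cultures and at 5.47 in BM.

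GM-CSF and M-CSF cultures differed in 8 of the 10 members by the edgeR test. For all 5 members called by their ratio, the direction was the same with and without IL6. In the edgeR test over the 4 cultures without 24 h IL6, fitted with all 6 libraries, 7 of the 10 members fell in GM-CSF cultures, 1 rose and 2 did not pass, where 27.4% of 14617 genes fell and 28.7% rose at an adjusted p under 0.05. All 10 members passed the filter of 1 CPM in some library, Ms4a3 through BM alone. The median log2 change of the members was -2.56, beside 0.01 over all genes tested. By the ratio rule for GM-BMDM over M-BMDM, 0 of 6 members were higher and 5 were lower, against 10.8% and 8.65% of all genes. For GM-BMDM_3h over M-BMDM_3h it was likewise 0 and 5 of 6, against 10.5% and 8.16%. With total counts in place of TMM, higher genes were 43.2% of all those called in GM-BMDM over M-BMDM, against 55.5% with TMM, and the same 0 and 5 members were counted.

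Ms4a6c and Ms4a6b both fell. Ms4a6c changed by -3.32 (SE 0.1) on the log2 scale with an edgeR adjusted p of 3.0e-34, and its log2 ratio was -3.20 (-3.36 to -3.04) in GM-BMDM over M-BMDM and -3.46 (-3.65 to -3.28) in GM-BMDM_3h over M-BMDM_3h. Ms4a6b changed by -4.25 (SE 0.147, edgeR adjusted p 1.7e-31). SE here is the size of the log2 change divided by the square root of the F statistic of the test. It measures no spread between repeats of a group.

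Ms4a6d, their duplicate, did not pass the test, with a log2 change of -0.11 (SE 0.0812, edgeR adjusted p 0.24). The ratio was -0.08 (-0.16 to -0.01) without IL6 and -0.14 (-0.22 to -0.07) with IL6 for 3 h. Scaling by total counts gave -0.24 with an edgeR adjusted p of 0.015, and adjusted p values over the other settings and tools ran between 0.197 and 0.833. The unequal change of the duplicates also shows within libraries, with no scaling: counts of Ms4a6d over Ms4a6c were 7.97 (7.16 to 8.89) in GM-BMDM, 10.2 (8.99 to 11.6) in GM-BMDM_3h, 0.919 (0.872 to 0.968) in M-BMDM and 1.02 (0.976 to 1.07) in M-BMDM_3h. In M-BMDM_24h the same count ratio was 1.40 (1.32 to 1.48) and in BM 0.0548 (0.0457 to 0.0652). Counts of Ms4a6d over Ms4a6b were 68.3 (50.7 to 94.2) in GM-BMDM, against 3.51 (3.24 to 3.81) in M-BMDM.

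Ms4a7 and Ms4a14 fell together. Ms4a7 changed by -2.74 (SE 0.0925, edgeR adjusted p 5.2e-32) and Ms4a14 by -3.28 (SE 0.144, edgeR adjusted p 7.1e-27). Both stayed above BM in the GM-CSF libraries and far under the M-CSF libraries. Macrophage markers moved with them: 5 of 7 fell, among them Adgre1 (the F4/80 antigen, 257 CPM in GM-BMDM, against 897 in M-BMDM) and Csf1r (the M-CSF receptor, 1069 and 3238 CPM), while Mertk rose and Cd68, at 1016 CPM in GM-BMDM against 1039 in M-BMDM, did not pass. The part of this shift in the change of Ms4a7 was not tested.

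Ms4a4c changed by -4.66 (SE 0.334, edgeR adjusted p 6.0e-18), and had 8 counts in GM-BMDM and 3 in GM-BMDM_3h, against 145 in M-BMDM and 135 in M-BMDM_3h. Ms4a4b changed by -2.38 (SE 0.605, edgeR adjusted p 6.5e-04), with 2 counts in GM-BMDM and 5 in GM-BMDM_3h, against 20 in M-BMDM and 18 in M-BMDM_3h. Ms4a4a changed by -0.99 (SE 0.388, edgeR adjusted p 0.0258), and the DESeq2 Wald test did not call it (-0.96, adjusted p 0.319); over the other settings the adjusted p was between 0.00884 and 0.0286. Its functional partner Clec7a (Dectin-1) rose, with GM-BMDM at 1429 CPM against 129 in M-BMDM (log2 change 3.39, edgeR adjusted p 4.7e-36). Interferon-stimulated genes moved in the same samples: all 8 on the list fell, summing to 93.6 CPM in GM-BMDM, against 539.5 in M-BMDM.

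Ms4a8a was the member that rose. Its 26 counts in GM-BMDM were at least 7.42-fold above M-BMDM, where it had 0, and the log2 ratio of GM-BMDM_3h over M-BMDM_3h was 5.31 (2.73 to 10.65). The edgeR adjusted p was 1.9e-06, and the gene stayed under 5 CPM in all libraries. Genes of alternative activation rose beside it, 6 of 7 on the list, including Chil3 (983 CPM in GM-BMDM, against 0.215 in M-BMDM) and Ccl17 (184 and 0.108 CPM). Ms4a3, with 1 count in the 4 cultures, did not pass (edgeR adjusted p 0.355).

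**Figure D3:**
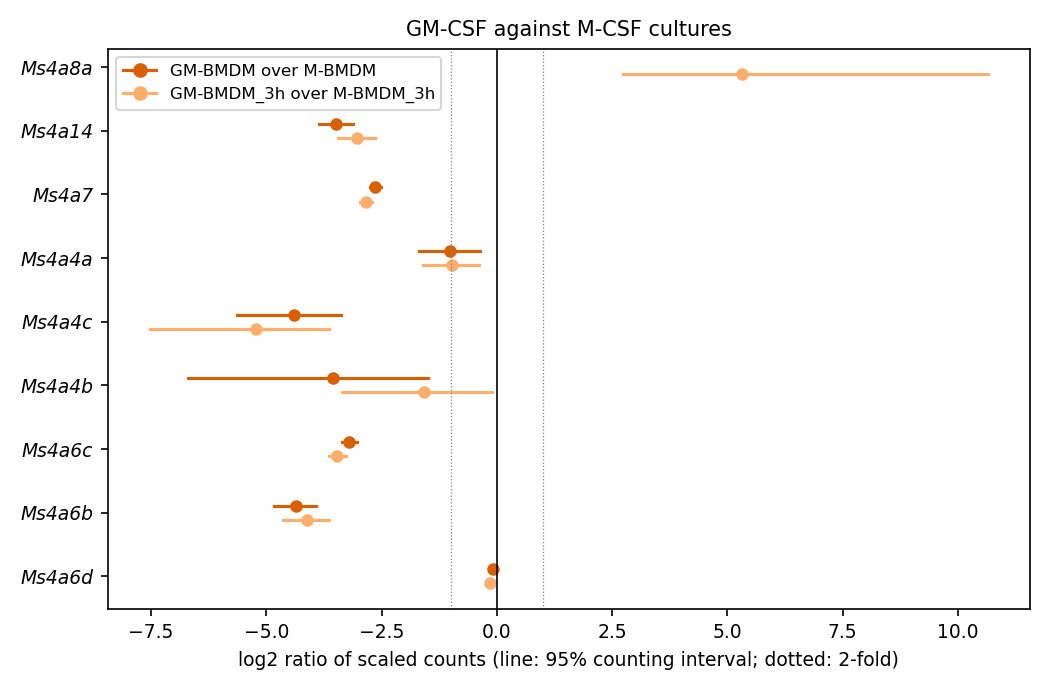
Log2 ratio of scaled counts in GM-BMDM over M-BMDM and in GM-BMDM_3h over M-BMDM_3h, for the members other than Ms4a3, with 95% counting intervals (lines) and 2-fold marks (dotted). Ms4a8a has no point without IL6 because M-BMDM had 0 counts. Ms4a6d lies at -0.08 and -0.14, and its duplicates Ms4a6c and Ms4a6b lie at -3.20 or lower.

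Related genes and partners gave a mixed picture. Tmem176a and Tmem176b, relatives of the family outside the cluster, fell by 4.54 and 4.59 on the log2 scale (edgeR adjusted p 3.2e-36 and 9.5e-40). Of 7 known partners tested, 2 rose (Clec7a and Tnfrsf18, the gene of GITR), 3 fell (Nlrp3, Trem2 and Fcer1g) and 2 did not pass. Nlrp3, the inflammasome sensor, changed by -2.08, with GM-BMDM at 77.2 CPM and M-BMDM at 344. Trem2, a lipid receptor of macrophages, changed by -0.45, with GM-BMDM at 473 CPM and M-BMDM at 602. Vsig4, the reported partner of Ms4a6d, had 0 counts in all cultures but M-BMDM_24h, where it had 0.125 CPM.

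No member was called or passed a test after IL6 for 3 h. Of 10 members, 0 passed the edgeR test of IL6 at 3 h against none, and 0 passed by limma-voom or DESeq2, where 0.0889% of all genes rose and 0.438% fell. At an unadjusted p under 0.05 the edgeR count was 1, Ms4a14 (log2 change -0.37, SE 0.133, p 0.0073, adjusted p 0.309). None of 6 members was called in M-BMDM_3h over M-BMDM, where 0.101% of all genes were higher and 0.272% lower, and none of 3 in GM-BMDM_3h over GM-BMDM, where 0.0585% were higher and 0.107% lower. In M-CSF cultures the log2 ratio was 0.16 (0.09 to 0.23) for Ms4a6d, 0.08 (0.02 to 0.14) for Ms4a7, 0.00 (-0.07 to 0.07) for Ms4a6c, -0.25 (-0.39 to -0.10) for Ms4a6b, -0.34 (-0.68 to 0.01) for Ms4a4c and -0.48 (-0.64 to -0.31) for Ms4a14. Under the 5 CPM limit, it was 0.22 (-0.29 to 0.74) for Ms4a4a and -0.38 (-1.39 to 0.61) for Ms4a4b, and Ms4a3 and Ms4a8a had at most 1 count in these libraries. In GM-CSF cultures it was 0.10 (0.02 to 0.17) for Ms4a6d, -0.12 (-0.28 to 0.04) for Ms4a7 and -0.26 (-0.49 to -0.03) for Ms4a6c. A doubling lies outside each of these intervals, so far as counting error goes, but that of Ms4a4b in M-CSF cultures includes a halving. Under the 5 CPM limit in GM-CSF cultures, some intervals were too wide to exclude a 2-fold change. The ratio there was 1.58 (-1.04 to 4.97) for Ms4a4b, 0.60 (-0.19 to 1.40) for Ms4a8a and -1.16 (-3.71 to 0.90) for Ms4a4c. Those of Ms4a4a, Ms4a6b and Ms4a14 did exclude it.

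In the library with IL6 for 24 h, 2 of the 6 members above 5 CPM in M-BMDM were called lower, and 0 higher. The 2 were Ms4a4c and Ms4a7, by the 2-fold rule against M-BMDM. By that rule 8.93% of all genes were lower and 11.5% higher. The log2 ratio was -2.19 (-2.73 to -1.69) for Ms4a4c and -1.10 (-1.18 to -1.03) for Ms4a7. Total counts in place of TMM moved all ratios of this pair by 0.14 on the log2 scale. Ms4a6c at -0.96 (-1.05 to -0.88), Ms4a14 at -0.82 (upper bound -0.65), Ms4a6b at -0.56 (-0.72 to -0.41) and Ms4a6d at -0.36 (-0.43 to -0.28) were short of 2-fold. Under the 5 CPM limit, the ratio was -1.25 (-1.93 to -0.60) for Ms4a4a and -1.69 (-3.09 to -0.45) for Ms4a4b, Ms4a8a had 4 counts in M-BMDM_24h and 0 in M-BMDM, and Ms4a3 had 0 in both.

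Against the 3 h library the same 2 members were lower, Ms4a4c at -1.86 (-2.40 to -1.35) and Ms4a7 at -1.19 (-1.26 to -1.12), beside 8.83% of all genes lower and 11.5% higher. The call of Ms4a7 rested on the scaling. With total counts its ratio was -0.97 over M-BMDM and -0.99 over M-BMDM_3h, and higher genes were 69.6% of all called over M-BMDM_3h, against 56.6% with TMM. These contrasts have 1 library at 24 h and were not tested.

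Other gene groups moved in the same library. All 10 proliferation genes were called higher over M-BMDM, but they were chosen after values were seen, so their count is not an independent result. Mki67, a marker of dividing cells, was at 860.1 CPM in M-BMDM_24h and 126 in M-BMDM. Interferon-stimulated genes were lower in 6 of 8 cases and summed to 204 CPM in M-BMDM_24h and 539.5 in M-BMDM. Macrophage markers summed to 5812 CPM in M-BMDM_24h and 6804 in M-BMDM, with 1 of 7 called higher and 0 lower. Tmem176a and Tmem176b were lower, at -1.83 and -1.84 on the log2 scale, as was Nlrp3 at -2.42 (64.3 CPM in M-BMDM_24h and 344 in M-BMDM). The part of the higher proliferation genes in the ratios of the members was not tested. No culture without IL6 was sampled at the later time, so IL6 and the added culture time cannot be told apart.

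**Figure D4:**
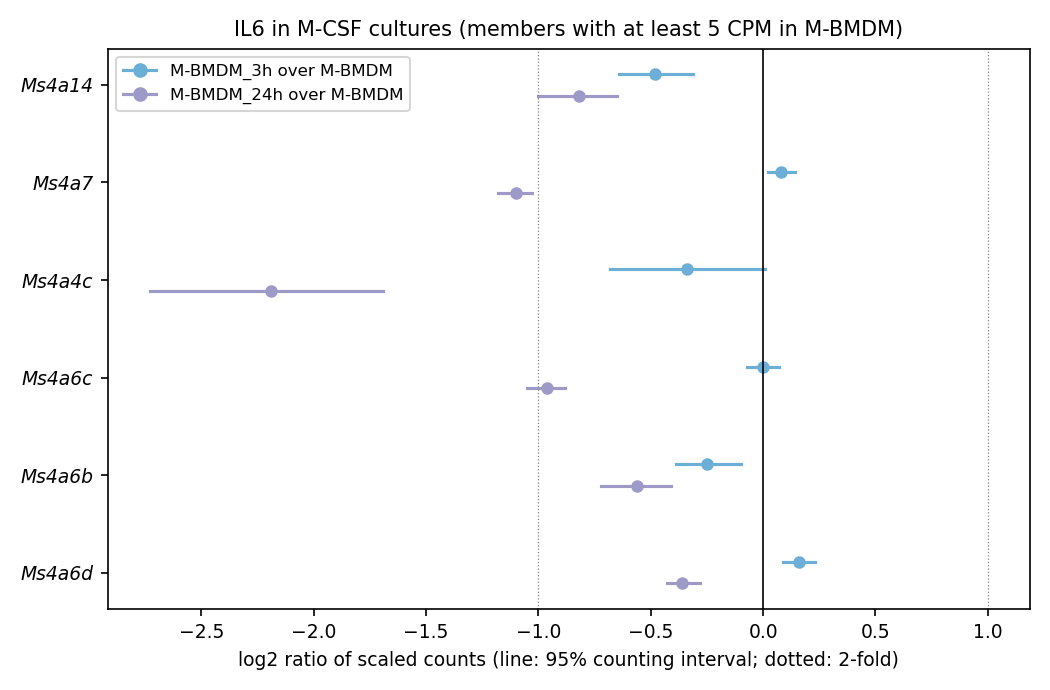
Log2 ratio of scaled counts in M-BMDM_3h over M-BMDM and in M-BMDM_24h over M-BMDM for the 6 members with at least 5 CPM in M-BMDM, with 95% counting intervals (lines) and 2-fold marks (dotted). At 3 h the ratios run between -0.48 and 0.16, and at 24 h between -2.19 and -0.36.

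Likeness of sequence and likeness of profile did not always go together. The coding sequences of Ms4a4b and Ms4a4c were identical at 91.7% of aligned bases, those of Ms4a6b and Ms4a6c at 85.0%, Ms4a6b and Ms4a6d at 79.4% and Ms4a6c and Ms4a6d at 76.2%. Among the 28 pairs of the 8 members that reached 5 CPM in some library, the profiles over the 6 libraries lay closest for Ms4a6b and Ms4a6c (distance 1.04 on centred log2(CPM + 1)). Next were Ms4a7 and Ms4a14 at 1.15, neighbours on the chromosome whose aligned coding bases were identical at 48.1%. Ms4a4b and Ms4a4c lay at 1.96. Ms4a6d, in contrast, lay 6.70 from Ms4a6b and 5.83 from Ms4a6c. The farthest pair was Ms4a3 and Ms4a6d at 10.22. Closely related copies could also trade reads in counting: 10.5% of the 50-base stretches of Ms4a6c, 8.19% of Ms4a4c, 3.57% of Ms4a6b, 2.54% of Ms4a6d and 2.40% of Ms4a4b occur in the same sense in another gene. Counting both senses, the share of Ms4a6c is 51.4%, mostly with BE692007. The values of these 5 genes are uncertain, by an amount that was not tested.

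**Figure D5:**
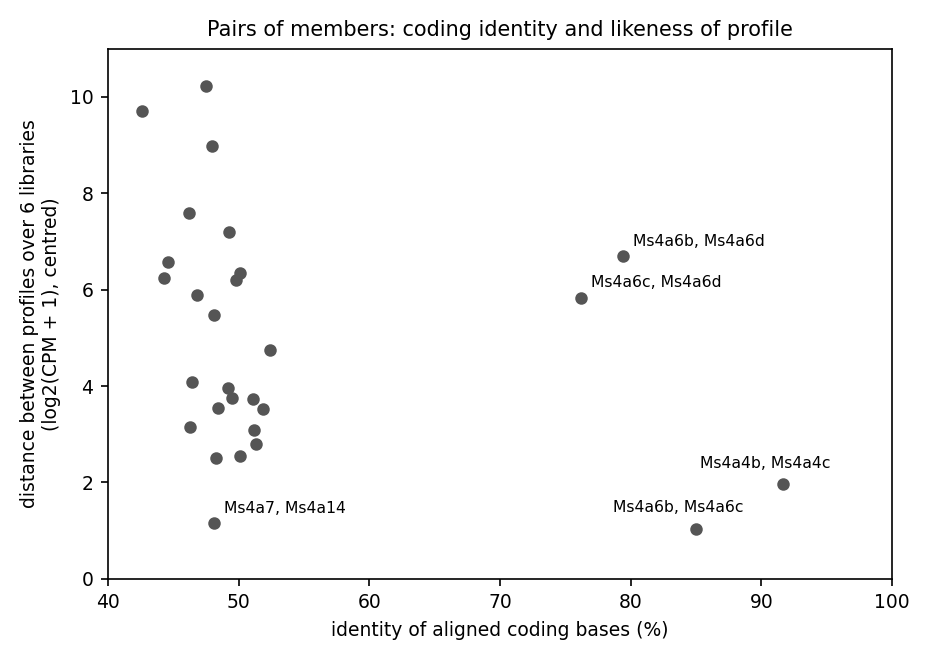
Distance between the profiles of 2 members over the 6 libraries (log2(CPM + 1), centred on each gene's mean) against the identity of their aligned coding bases, 1 point per pair of the 8 members with at least 5 CPM in some library. Ms4a6d lies at 5.83 and 6.70 from its duplicates, which lie at 1.04 from each other.

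Genes outside the family with the nearest profiles, as a description over 6 libraries that share their scaling, were found by the same distance among 9993 genes with at least 10 CPM in some library. Ms4a6d was nearest to Ctsb, a lysosomal protease (0.41, with 14810 CPM in GM-BMDM, 11730 in M-BMDM and 642 in BM), and to Cstb, which encodes a cathepsin inhibitor (0.41). Ms4a7 was nearest to Pid1 (0.32) and Smad6, an inhibitor of BMP signals (0.39). Ms4a14 was nearest to Ust (0.57) and Ctla2b (0.60). Ms4a6c was nearest to Irf7, an interferon-induced transcription factor (0.46, with 6.58 CPM in GM-BMDM, 64.1 in M-BMDM and 53.6 in BM), and Rassf2 (0.58). Ms4a6b was nearest to St3gal5, the synthase of the ganglioside GM3 (0.61), and again Irf7 (0.82). Ms4a4c was nearest to Ifitm6 (0.79), of the interferon-induced membrane gene family, and Siglece (0.93), a sialic acid receptor. Ms4a4b was nearest to Epb41l4b (0.44) and Pde2a (0.45).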

How the data were processed

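Total RNA of 6 mouse samples was sequenced on an Illumina instrument, per the labels. The deposited table holds expected counts per gene for 56278 rows: 24.7 to 27.7% of values above 0 were not whole, and they were rounded. Per the submitters' processing notes, HISAT2, StringTie, DESeq2 and the genome GRCm38 were used. Roles, versions and the strand setting are not stated there. The 742 rows without a gene name (0.240 to 0.522% of counts) were left out. All 55536 named rows matched GENCODE M21 (GRCm38), which gave positions and exon lengths. The table also has the authors' gene lengths.

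TMM scaling was done in edgeR 4.0.16 under R 4.3.3. Pairs of libraries were compared as ratios with exact Clopper-Pearson intervals (SciPy 1.17.1), where 3 counts stood for 0. PCR copies are not independent molecules, so intervals and limits cover counting error only. The edgeR quasi-likelihood test was fitted to all 6 libraries, with cell type and each IL6 time as terms (1 residual degree of freedom, 14617 genes with at least 1 CPM in some library, Benjamini-Hochberg adjustment). The 1 residual degree of freedom is the difference between the 3 h IL6 responses of the GM-CSF and M-CSF cultures. The error behind each p-value was mostly borrowed from other genes (prior degrees of freedom 50.7). The labels do not say whether libraries came from separate mice. The p-values therefore measure no spread between mice or between repeats of a group. DESeq2 1.42.0, limma-voom (limma 3.58.1), other scalings, filters, fold limits and gene lengths were alternatives, and the authors' gene lengths were added after the data were seen. Coding sequences and promoters were aligned with MAFFT 7.526, and coding bases took the place of the planned protein comparison. The rule for named genes took all 10 members, every other Ms4a gene, the relatives, the partners and the 2 genes nearest in profile to each member with at least 5 CPM. The members and gene lists were chosen with earlier results of these data known.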

Additional observations from a re-analysis of the deposited data

How the results depend on the processing

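No paired analysis was possible because each group has 1 library, and no replicate could be left out. No called ratio or tested change of a member past its threshold turned its sign under any alternative. Over all genes, total counts turned the majority to lower in GM-BMDM over M-BMDM (904 higher and 1191 lower, against 1134 and 908 with TMM), in GM-BMDM_3h over M-BMDM_3h (951 and 1008, against 1097 and 853) and in M-BMDM_24h over BM (1895 and 2092, against 1983 and 1946), the last also with DESeq2 size factors (1877 and 2009). DESeq2 size factors left all 9 counts of called members and of all called genes within 1.5 times. Over all genes, a limit of 4-fold left 2530 genes called in M-BMDM over BM, 2381 in GM-BMDM over BM, 2028 in M-BMDM_24h over BM, 727 in GM-BMDM over M-BMDM, 734 in GM-BMDM_3h over M-BMDM_3h, 5 in M-BMDM_3h over M-BMDM, 672 in M-BMDM_24h over M-BMDM, 652 in M-BMDM_24h over M-BMDM_3h and 5 in GM-BMDM_3h over GM-BMDM. With the 2-fold limit these counts were 4854, 4776, 3929, 2042, 1950, 37, 2105, 2091 and 17. A limit of 1.5-fold gave 3966 for GM-BMDM over M-BMDM, 3809 for GM-BMDM_3h over M-BMDM_3h, 163 for M-BMDM_3h over M-BMDM, 4030 for M-BMDM_24h over M-BMDM, 3981 for M-BMDM_24h over M-BMDM_3h and 107 for GM-BMDM_3h over GM-BMDM. At least 1 CPM gave 3170, 2965, 291 and 234 for GM-BMDM over M-BMDM, GM-BMDM_3h over M-BMDM_3h, M-BMDM_3h over M-BMDM and GM-BMDM_3h over GM-BMDM, and at least 20 CPM gave 1319, 1273, 4 and 1. Among the members, at least 1 CPM called 8 in GM-BMDM over M-BMDM, against 5. In M-BMDM_24h over M-BMDM, against 2 members, total counts called 1, a limit of 1.5-fold 4, of 4-fold 1, at least 1 CPM 4 and at least 20 CPM 1. In M-BMDM_24h over M-BMDM_3h, against 2 members, total counts called 1, a limit of 4-fold 0 and at least 20 CPM 1. Of all genes, 8207 passed the edgeR test of GM-CSF against M-CSF cultures, 4376 with a fixed coefficient of variation of 0.2 and 4994 by the DESeq2 Wald test. For IL6 at 3 h, 77 passed, and 124 with DESeq2 size factors, 137 with 4 libraries alone, 37 with the fixed coefficient, 125 by limma-voom and 3 by the DESeq2 Wald test. The cause of these shifts was not tested beyond what each limit fixes by its construction. Low counts give wide intervals, as for Ms4a8a in GM-BMDM_3h over M-BMDM_3h (2.73 to 10.65), and 3 counts are 0.121 to 0.165 CPM.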
